A study of Rattus norvegicus with 6 samples.

Results

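Cadherins are calcium-dependent adhesion receptors that join neighbouring cells, and catenins are the cytoplasmic proteins that tie them to the cytoskeleton. The transcripts followed here are every gene whose symbol in the files names a numbered cadherin, an alpha, beta or delta catenin, a plakophilin, a desmocollin or desmoglein, a Fat or Celsr cadherin, plakoglobin (Jup), desmoplakin (Dsp) or Arvcf. The rule takes 50 of the 31011 genes named in the files and uses no measured value. Of these 50, 22 carried enough counts to be tested.

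The RNA came from cultured rat cells labelled as myocardial and as NRVM, with embryonic rat heart muscle given as their origin. In 3 libraries the cells had received a control siRNA and in 3 an siRNA against eIF3m, a subunit of the initiation factor that brings the small ribosomal subunit to mRNA. The sources used here give no strain or pooling of the animals, no age beyond the word embryonic, and no time after transfection. The labels also do not say that the replicates were separate cultures, so p-values measure the spread between these libraries, which may be technical. The protocol text shared by both groups also holds a differentiation medium (dexamethasone, isobutylmethylxanthine, then insulin), and whether these cells received it is not stated.

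In an adherens junction, a classical cadherin binds p120 catenin (Ctnnd1) near the membrane and beta-catenin (Ctnnb1) or plakoglobin at its tail, and alpha-catenin (Ctnna1) links that complex to actin. In a desmosome, desmogleins and desmocollins bind plakoglobin and plakophilins, and desmoplakin connects them to intermediate filaments. Heart muscle merges both kinds of junction in its intercalated discs, where N-cadherin (Cdh2), Ctnna3, Jup, Pkp2, Dsp, Dsg2 and Dsc2 are the known components. Fat and Celsr proteins are giant cadherins that act in tissue polarity and growth control rather than in these junctions.

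Total counts ran from 7437285 to 8603602 in the control libraries and were 10061575, 2156186 and 7901395 in eIF3m replicates 1, 2 and 3. A total of 3 counts, taken as the lowest level that can be told from 0, was worth 0.286 to 1.32 CPM (counts scaled to library depth with TMM factors), with the highest value in eIF3m replicate 2. Levels are given as CPM and are not divided by transcript length, so they compare libraries for a gene and not genes with each other. Eif3m itself was at 137, 136 and 141 CPM in the controls and at 91.7, 83.9 and 87.3 CPM after its siRNA (log2 fold change -0.64 ± 0.05 SE, adjusted p = 1.41e-07 by edgeR's quasi-likelihood test). Of 10 cardiomyocyte markers, Myl2 and Myh7 had at most 2 counts in any library, Tnni3, Myh6, Ryr2 and Myl7 at most 11, and Actc1 at most 19, while Tnnt2 (cardiac troponin T), Ttn and Nkx2-5 were measured well. Of 10 skeletal myoblast markers, the factors Myod1 and Myog were measured, at 44 to 145 and 14 to 156 counts per library. Pax7 was at 0 in every library, and Myf5 had at most 1 count in a library, Myf6 at most 6, Chrng at most 11 and Chrna1 at most 12. Myh3 had 22 to 139 counts per library, Tmem8c 4 to 32 and Chrnd 2 to 31. These counts leave the labelled cell type in doubt, which bears on every member described below as one of heart muscle. One library stood apart from the rest: in eIF3m replicate 1 the 8 blood markers summed to 6227 CPM. Their sum was 33.8 to 80.4 CPM in the controls, 231 CPM in eIF3m replicate 2, above all controls, and 54.3 CPM in eIF3m replicate 3. The 10 endothelial markers summed to 194 CPM in eIF3m replicate 1, against 31.4 to 49.5 CPM elsewhere.

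The cadherin and catenin transcripts did not move one way after eIF3m knockdown. Of the 22 tested, 6 rose (Celsr2, Pkp4, Cdh11, Cdh24, Arvcf and Pkp1) and 6 fell (Jup, Fat1, Cdh13, Ctnna1, Cdh3 and Cdh15), by edgeR's quasi-likelihood test with Benjamini-Hochberg adjustment over all 12724 genes tested. Over all those genes 17.4% rose and 21.2% fell (2220 and 2700), or 38.7% in either direction. The knockdown values lay above all controls for 7 tested members and below them for 6, beside 23.3% and 25.3% of all genes, or 48.6% in either direction. The log2 fold changes of the members ran from -0.57 to 0.77 with a median of 1.9e-04, beside a median of 0.013 over all genes. None of the 12 changes reached 2-fold, which 2.62% of all genes did upward and 1.47% downward. Without scaling factors, which shifts the median gene by 0.14, 7 members rose and 4 fell (4126 and 1684 of all genes), and with upper-quartile factors 6 rose and 5 fell (3015 and 2130 of all genes). Without eIF3m replicate 1, 6 rose and 6 fell again, the same genes in the same directions, beside 15.0% and 19.1% of all genes. In bulk RNA, fewer cells of a type and less RNA per cell cannot be told apart.

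**Figure D1:**
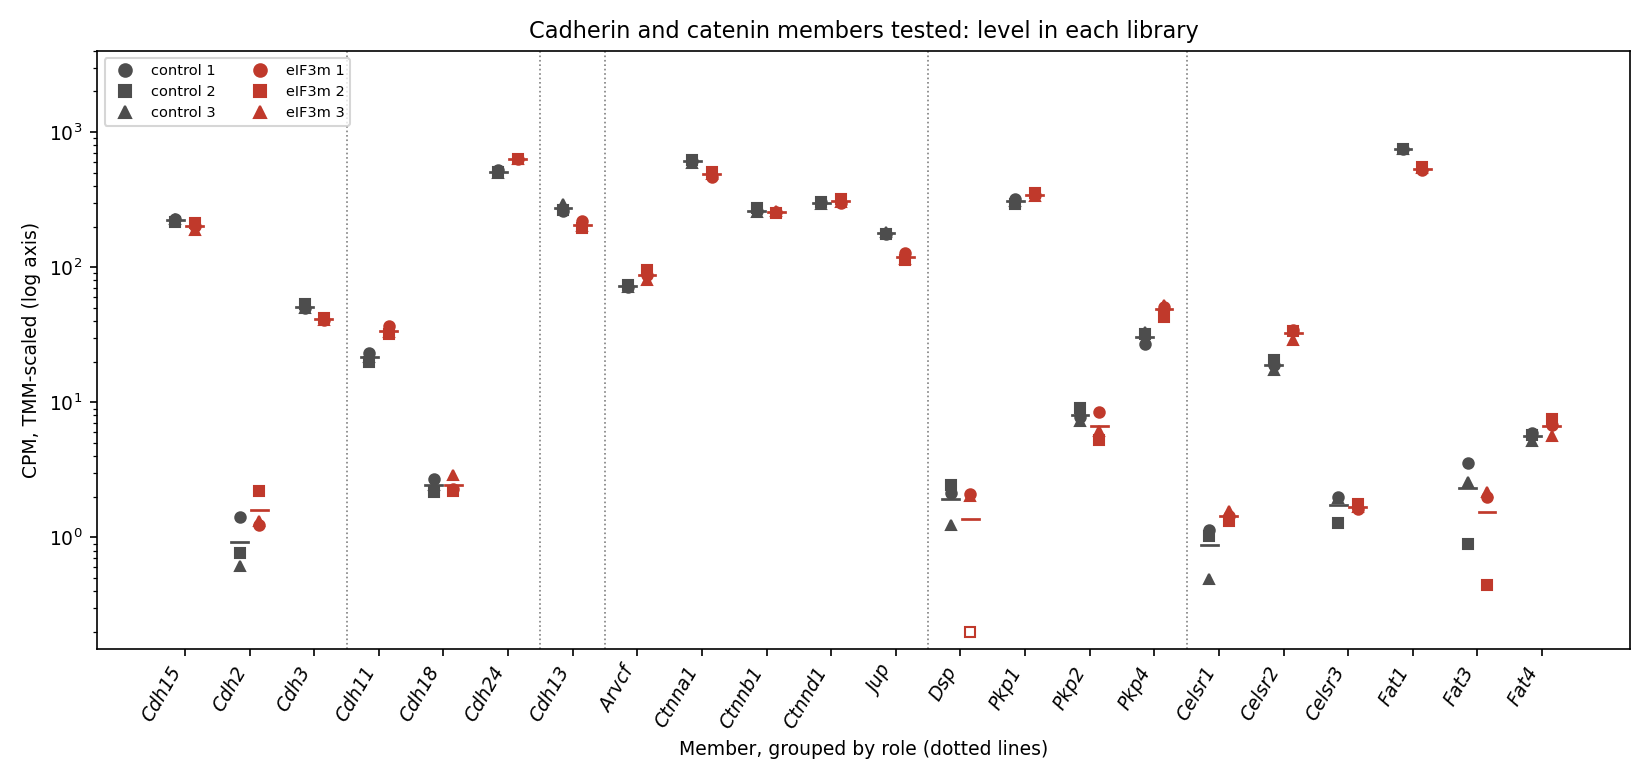
Level of the 22 tested members in each library, in TMM-scaled CPM on a log axis. Grey symbols are control siRNA, red symbols eIF3m siRNA, horizontal bars the mean of 3 libraries, and the open square marks the 0 counts of Dsp in eIF3m replicate 2, placed near the lower edge of the axis. The red and grey points of Jup, Fat1, Pkp4 and Celsr2 do not overlap, whereas those of Ctnnb1 and Ctnnd1 do.

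Among the 5 classical (type I) cadherins, whose tails bind catenins, Cdh15 and Cdh3 fell slightly and Cdh2 was barely present. Cdh15, M-cadherin, is known from skeletal myoblasts and satellite cells. With libraries listed by replicate number here and throughout, the controls had 229, 218 and 226 CPM of Cdh15, and the knockdown libraries had 202, 211 and 189.8 CPM. The groups did not overlap, but the gap between the lowest control and the highest knockdown library was small, and the fall was 10.5% (-0.16 ± 0.05 SE, adjusted p = 0.0225). That call was lost without control replicate 1 (-0.15, adjusted p = 0.0885), control replicate 3 (-0.16, adjusted p = 0.0727) or eIF3m replicate 3 (-0.12, adjusted p = 0.0874). It was also lost with upper-quartile factors (-0.093, adjusted p = 0.169), no scaling factors (-0.016, adjusted p = 0.821) and libraries thinned to equal depth (-0.11, adjusted p = 0.257). The 10 skeletal myoblast markers, with Pax7 at 0, summed to 58.7 to 63.5 CPM in controls and 32.3 to 38.4 CPM in knockdown libraries. Of the 5 tested, 4 fell, beside 21.2% of all genes. The part of these markers in the Cdh15 difference was not tested.

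Cdh3, P-cadherin, was at 50.1, 53.5 and 49.5 CPM in the controls and at 41.0, 42.0 and 40.8 CPM in the knockdown libraries. Every knockdown value lay below every control value, a fall of 19.5% (-0.31 ± 0.07 SE, adjusted p = 0.00200). This call was lost without scaling factors (-0.17, adjusted p = 0.0601) and with thinned libraries (-0.25, adjusted p = 0.108). In the RefSeq annotation Cdh3 lies next to Cdh1, E-cadherin of epithelia, which had 0, 1 and 0 counts in the controls and 2, 0 and 4 counts in the knockdown libraries.

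Cdh2, N-cadherin, the classical cadherin of heart muscle, had 10, 6 and 5 counts in the controls and 13, 5 and 11 in the knockdown libraries. It was tested at about the lowest depth the filter allows, at 0.932 ± 0.425 CPM in controls and 1.59 ± 0.538 CPM in knockdown libraries, and a change was not detectable at this depth (0.62 ± 0.47 SE, adjusted p = 0.321). The remaining classical member, Cdh4, had 4 counts over the control libraries and 0 over the knockdown libraries.

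Of 13 type II cadherins, whose ectodomains form another adhesive subclass, 3 were tested: Cdh11 and Cdh24 rose, and Cdh18 was not called. Cdh11 is a cadherin of mesenchymal cells and bone. Its level was 23.2, 19.8 and 21.5 CPM in the controls and 36.6, 32.2 and 33.0 CPM in the knockdown libraries, so that each knockdown library lay above each control. The mean rose from 21.5 ± 1.71 to 33.9 ± 2.34 CPM (SD, n = 3), a log2 fold change of 0.68 ± 0.10 SE (adjusted p = 5.85e-05), and it was 0.61 ± 0.12 SE without eIF3m replicate 1. Fibroblast markers moved too: of the 7 tested among 9, 4 rose (Col1a1, Dcn, Lum and Postn) and 2 fell (Thy1 and Ddr2). Over all genes 17.4% rose and 21.2% fell. Lum was at 0.849, 0.255 and 0.860 CPM in the controls and 10.3, 3.97 and 2.88 CPM in the knockdown libraries, while Dcn was at 55.4 CPM in eIF3m replicate 1 and at 0.983 to 2.21 CPM elsewhere. Postn rose from 368 ± 4.29 to 468 ± 22.1 CPM. The summed level, mostly Col1a1, was 13818 to 14367 CPM in controls and 14739 to 15217 CPM in knockdown libraries, and the part of these markers in the Cdh11 change was not tested.

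Cdh24 encodes a type II cadherin that binds catenins. It was measured at 523, 503 and 499 CPM in the controls and at 637, 628 and 629 CPM in the knockdown libraries. The 3 knockdown values were close together and above all controls, a rise of 24.3% (0.31 ± 0.03 SE, adjusted p = 2.81e-06). Cdh18, a neural type II cadherin, was at 2.44 ± 0.260 CPM in controls and 2.46 ± 0.366 CPM in knockdown libraries (adjusted p = 0.935).

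The endothelial member, Cdh5 or VE-cadherin, had 30 counts in eIF3m replicate 1 and 0 in each of the other 5 libraries. It did not pass the filter. In the same library Pecam1 had 116 counts, Tie1 78, Cldn5 65 and Esam 41, against at most 2 counts of each elsewhere. Of the same marker list, Vwf had 1349 counts there and 29 to 86 elsewhere. Egfl7 was not raised there, at 30.4 to 35.9 CPM in the controls and 25.6, 19.9 and 21.1 CPM in the knockdown libraries. With no filter on low counts Cdh5 alone among the 28 untested members passed the test (adjusted p = 7.85e-06), although the difference rests on that library. Cdh5 and Cdh11 are neighbours in the RefSeq gene order, and unlike Cdh5, Cdh11 was raised in all 3 knockdown libraries.

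Cdh13, T-cadherin, lacks a cytoplasmic tail and is held in the membrane by a lipid anchor, so it does not bind catenins. It stood at 260.4, 265 and 295 CPM in the controls and at 219, 197 and 203 CPM in the knockdown libraries. No values of the groups overlapped, and the mean fell by 24.4% in the fit (-0.40 ± 0.06 SE, adjusted p = 6.04e-05). T-cadherin is known in smooth muscle and pericytes. The 8 markers of these cells summed to 1117 to 1152 CPM in controls and 647 to 678 CPM in knockdown libraries. Pdgfrb alone gave 717 to 739 CPM of the sum in controls and 363 to 382 CPM in knockdown libraries. Of the 7 tested, 4 fell and 2 rose (Notch3 and Cspg4), beside 21.2% and 17.4% of all genes. The part of these markers in the Cdh13 change was not tested. The others grouped with Cdh13 here were scarcely present. Cdh16 and Cdh17, known from kidney and gut, had at most 5 counts in a library, Cdh23, of inner ear hair cells, at most 9, and Cdh26 had 1 count in all.

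**Figure D2:**
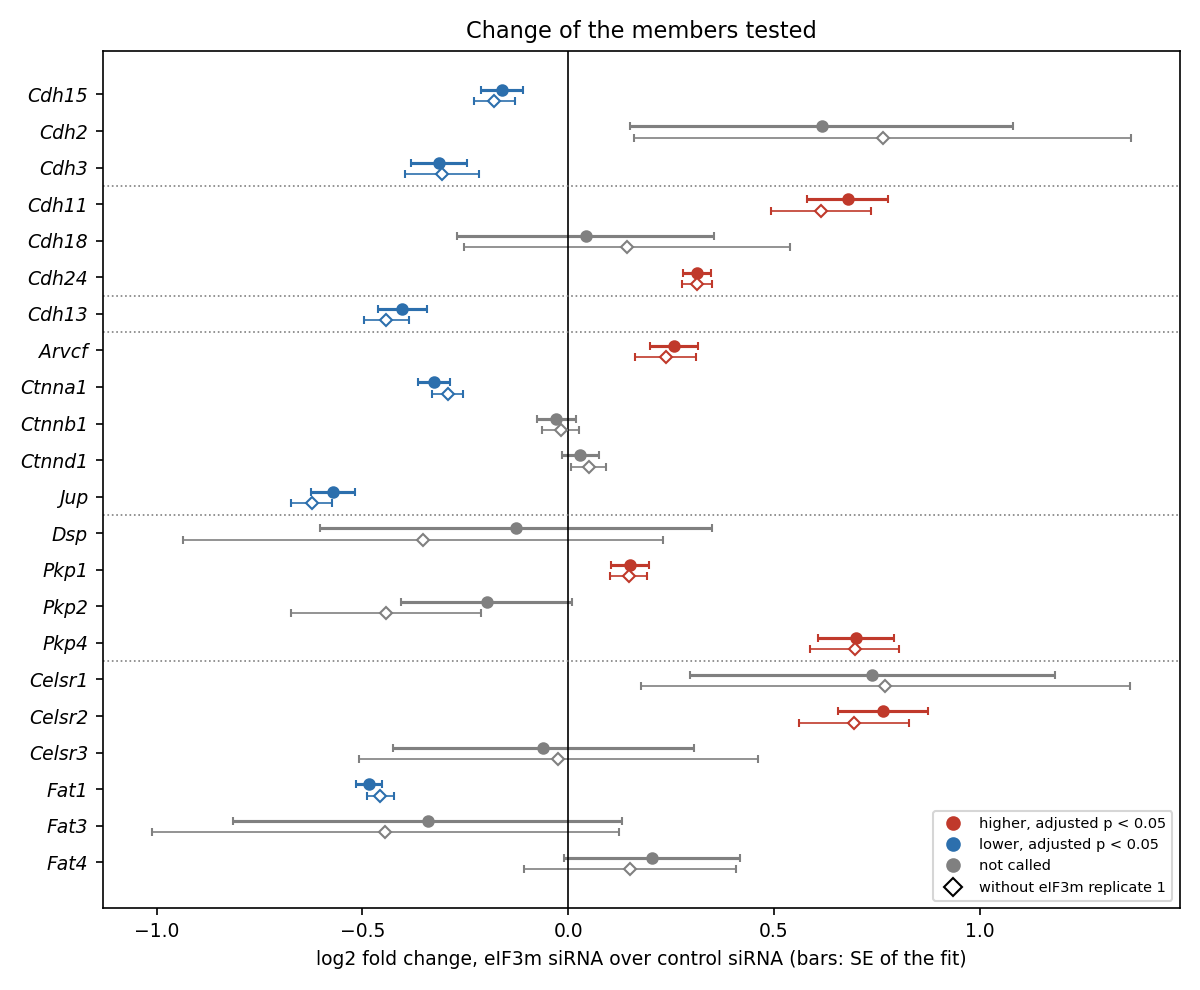
Log2 fold change of each tested member, eIF3m siRNA over control siRNA, with the standard error of the fit, grouped by role. Red marks members that rose, blue those that fell and grey those not called at adjusted p under 0.05; open diamonds repeat the fit without eIF3m replicate 1, where the 12 called members kept their direction and call.

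Of the 5 catenin-family members tested, plakoglobin and alpha-catenin fell, Arvcf rose, and beta-catenin and p120 were not called. Jup, plakoglobin, which can take the place of beta-catenin in adherens junctions and is also part of desmosomes, was at 178, 176 and 181 CPM in the controls. In the knockdown libraries it was at 128, 114 and 116 CPM, well below the controls. Its mean fell from 178 ± 2.83 to 119 ± 7.38 CPM (SD, n = 3), or 32.7% in the fit (-0.57 ± 0.05 SE, adjusted p = 6.40e-07), the lowest log2 fold change among the members tested.

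Ctnna1, alpha-E-catenin, the actin-binding link of the adherens junction, was at 609.7, 623 and 595 CPM in the controls and at 465, 507 and 487 CPM in the knockdown libraries. The groups did not overlap, and the transcript fell by 20.2% (-0.33 ± 0.04 SE, adjusted p = 7.44e-06). Its annotation overlaps Lrrtm2, and since the sources used here give no strand setting, reads of overlapping genes are uncertain. The paralogues Ctnna2, of neurons, and Ctnna3, of heart and testis, had 11 and 3 counts over all 6 libraries.

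Ctnnb1, beta-catenin, which is both a junction protein and the transcriptional effector of Wnt signalling, was at 259, 273 and 256 CPM in the controls and at 257, 252 and 262 CPM in the knockdown libraries. The groups overlapped, with a log2 fold change of -0.029 ± 0.05 SE (adjusted p = 0.669) that turned positive with upper-quartile factors (0.039), no scaling factors (0.12) and thinned libraries (0.018). Ctnnd1, p120 catenin, which holds cadherins at the cell surface, was at 305, 302 and 295 CPM and at 298, 319 and 304 CPM in the same order of groups. It overlapped too (0.029 ± 0.04 SE, adjusted p = 0.648), but passed without scaling factors (0.17, adjusted p = 0.00650). Arvcf, a relative of p120, rose: it stood at 71.6, 74.2 and 71.9 CPM in the controls and at 88.2, 94.9 and 81.0 CPM in the knockdown libraries (0.26 ± 0.06 SE, adjusted p = 0.00286). The neural relative Ctnnd2 had 5 counts in all.

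Because the scaling factor of a library cancels in a ratio of counts, Jup, Ctnna1 and Ctnnd1 were also set against Ctnnb1 within each library. The ratio of Jup to Ctnnb1 counts was 0.685, 0.644 and 0.709 in the controls and 0.496, 0.452 and 0.443 in the knockdown libraries, so all 3 knockdown values lay below the controls. Ctnna1 to Ctnnb1 went from 2.32 ± 0.036 to 1.89 ± 0.105 (SD, n = 3), also without overlap. Ctnnd1 to Ctnnb1 was 1.15 ± 0.036 in controls and 1.20 ± 0.060 in knockdown libraries, and these values overlapped. Exact two-sided permutation tests gave p = 0.10 for the first pair of ratios, the smallest p that 3 against 3 libraries allow, and p = 0.40 for Ctnnd1, or adjusted p = 0.25 and 0.50 over the 5 ratios computed. The other ratios, Cdh11 and Cdh15 to Cdh2, rest on 5 to 13 counts of Cdh2 (exact permutation p = 0.70 and 0.20, adjusted p = 0.70 and 0.333).

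**Figure D3:**
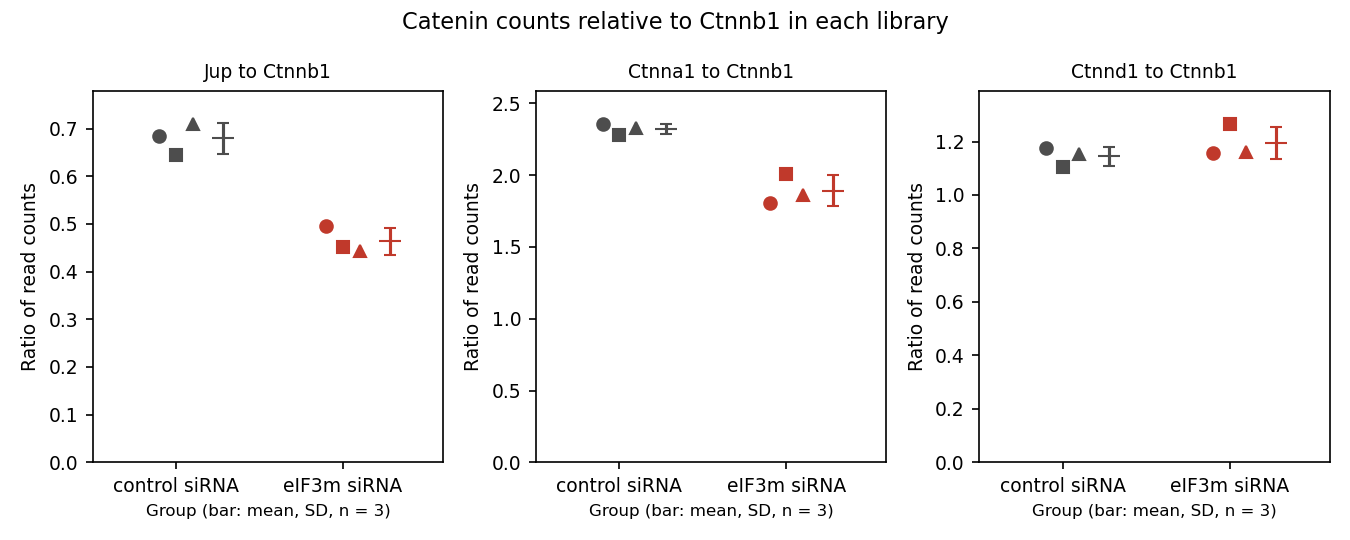
Ratio of read counts of Jup, Ctnna1 and Ctnnd1 to those of Ctnnb1 in each library (circle, square and triangle for replicates 1, 2 and 3), with mean and SD of 3 libraries beside them. The Jup and Ctnna1 ratios of the knockdown libraries lie below all controls, from 0.443 to 0.496 and from 1.81 to 2.01.

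In the desmosome, the plakophilins Pkp4 and Pkp1 rose, Pkp2 and Dsp were not called, and no desmosomal cadherin was measurable. Pkp4, also called p0071, is found at junctions of many cell types and takes part in cell division. It was at 27.2, 31.9 and 33.1 CPM in the controls and at 50.6, 42.8 and 52.8 CPM in the knockdown libraries. Each knockdown value exceeded each control, with a mean that rose from 30.7 ± 3.13 to 48.7 ± 5.23 CPM (0.70 ± 0.09 SE, adjusted p = 2.30e-05). Pkp4 overlaps a predicted coding gene without a name, and reads of the pair are uncertain. Pkp1, a plakophilin known from skin, stood at 322, 296 and 312 CPM in the controls and at 345, 352 and 336 CPM in the knockdown libraries. The groups were close but did not overlap (0.15 ± 0.05 SE, adjusted p = 0.0172). Pkp1 missed the threshold without control replicate 2 (0.11, adjusted p = 0.124), without control replicate 3 (0.15, adjusted p = 0.0600) and with thinned libraries (0.15, adjusted p = 0.0620). In the RefSeq gene order Pkp1 is next to Tnnt2, which fell (-1.27 ± 0.05 SE, adjusted p = 5.98e-11).

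Pkp2, the plakophilin of heart muscle, was at 7.78, 9.06 and 7.25 CPM in the controls and at 8.49, 5.30 and 6.12 CPM in the knockdown libraries. The groups overlapped (-0.20 ± 0.21 SE, adjusted p = 0.486). Dsp, the desmosomal link to intermediate filaments, had 15, 19 and 10 counts in the controls and 22, 0 and 17 in the knockdown libraries, and was not called (adjusted p = 0.864). Dsg2 and Dsc2, the desmosomal cadherins of heart muscle, had 0 and 2 counts over all 6 libraries. Of the 7 desmocollins and desmogleins, Dsc1, Dsc3 and Dsg2 were at 0 everywhere, and Dsg1, Dsg3, Dsg4 and Dsc2 had 3, 1, 1 and 2 counts in all. Pkp3, an epithelial plakophilin, had at most 6 counts in a library.

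**Figure D4:**
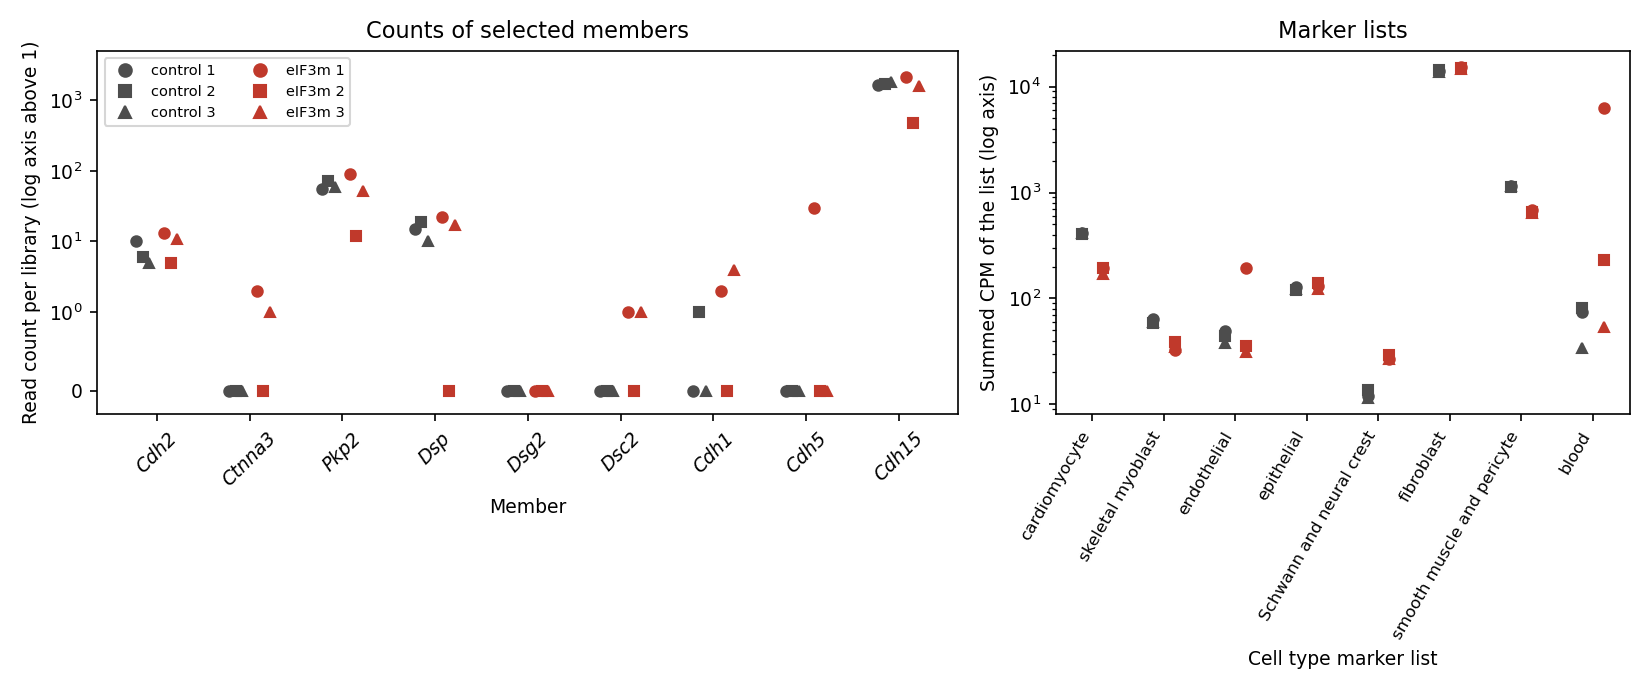
Left, read counts per library of members known from intercalated discs, epithelia, endothelium or myoblasts (log axis above 1); counts are not divided by transcript length. Right, summed CPM of each cell type marker list per library on a log axis, with eIF3m replicate 1 (red circle) at 6227 CPM for blood and 194 CPM for endothelium, the library that holds all 30 Cdh5 counts.

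The giant cadherins moved in both directions. Fat1, which is known to shape actin-rich protrusions and muscle, was at 754, 749.9 and 748 CPM in the controls and at 521, 547 and 543 CPM in the knockdown libraries. The controls lay close together (751 ± 3.43 CPM, SD, n = 3), and every knockdown library was far below them (-0.48 ± 0.03 SE, adjusted p = 1.27e-08), so that the transcript fell by 28.5%. Celsr2, a seven-pass cadherin related to fly Flamingo, changed the opposite way. Its values were 18.8, 20.4 and 17.5 CPM in the controls and 34.3, 34.0 and 28.8 CPM in the knockdown libraries, without overlap. The mean rose from 18.9 ± 1.49 to 32.4 ± 3.11 CPM (0.77 ± 0.11 SE, adjusted p = 4.50e-05), and the value was 0.69 ± 0.13 SE without eIF3m replicate 1.

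Fat4, the receptor of the Dachsous cadherins, was at 5.62 ± 0.405 and 6.64 ± 0.941 CPM (0.20 ± 0.21 SE, adjusted p = 0.483). Fat3 was at 2.34 ± 1.34 CPM in controls and 1.53 ± 0.950 CPM in knockdown libraries, Celsr1 at 0.881 ± 0.342 and 1.44 ± 0.118 CPM, and Celsr3 at 1.74 ± 0.403 and 1.69 ± 0.0732 CPM. None of these was called (adjusted p = 0.605, 0.208 and 0.920). Celsr1 had values above all controls in the 3 knockdown libraries, but these were 15, 3 and 13 counts against 8, 8 and 4, and it passed the filter mainly through them. Fat2 had 1 count in all.

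Among the 28 members not tested, 6 had no count in any library and 20, those 6 included, had at most 3 counts in every library. Of the type II cadherins, Cdh9, Cdh20 and Cdh22 were at 0 throughout, and Cdh6, Cdh10 and Cdh12 had 6, 3 and 2 counts in all and Cdh7, Cdh8 and Cdh19 1 each. In the RefSeq annotation the tested members Pkp4 and Celsr3 overlap other coding genes, as do the untested Cdh23, Ctnna2, Ctnna3, Ctnnd2 and Pkp3, so their counts carry the same doubt as those of Ctnna1. The tested members Arvcf, Cdh11, Cdh13, Cdh18, Jup and Pkp2 overlap genes that are not annotated as coding. The smallest library, eIF3m replicate 2, held no count for 25 of the 50 members. The deepest, eIF3m replicate 1, held none for 10, and it was the only library with counts for 7 members (Cdh5, Cdh7, Cdh19, Cdh26, Dsg1, Dsg3 and Fat2), against 1 such member in each control library and 0 in the other two knockdown libraries.

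The bases just before the gene start were searched for E-boxes, short sites recognised by myogenic factors and by the Snail and Zeb repressors of cadherin genes. Of the 22 tested members, 15 matched a promoter window, which leaves out Cdh2, Cdh3, Cdh11, Cdh13, Ctnna1, Celsr1 and Pkp2. The windows of Celsr2, which rose, and of Jup, Fat1 and the myoblast cadherin Cdh15, which fell, are shown. They cover 250 bases before the RefSeq start in build GRCr8, not the rn6 build of the counts, 5′ to 3′ on the strand of the gene, with each CANNTG in capitals: Celsr2 at chr2:198741383-198741632 (minus strand), Jup at chr10:85827430-85827679 (minus strand), Fat1 at chr16:54028610-54028859 (minus strand) and Cdh15 at chr19:67814407-67814656 (plus strand).
Celsr2: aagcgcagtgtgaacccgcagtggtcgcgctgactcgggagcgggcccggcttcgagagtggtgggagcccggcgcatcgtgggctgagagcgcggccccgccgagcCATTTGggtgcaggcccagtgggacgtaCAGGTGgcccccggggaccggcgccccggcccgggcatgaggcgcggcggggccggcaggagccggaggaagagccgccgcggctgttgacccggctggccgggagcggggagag
Jup: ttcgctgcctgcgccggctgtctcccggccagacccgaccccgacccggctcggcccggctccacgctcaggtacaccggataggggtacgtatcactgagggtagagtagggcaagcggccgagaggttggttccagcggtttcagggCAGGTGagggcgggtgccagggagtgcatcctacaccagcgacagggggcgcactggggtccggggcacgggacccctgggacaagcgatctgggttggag
Fat1: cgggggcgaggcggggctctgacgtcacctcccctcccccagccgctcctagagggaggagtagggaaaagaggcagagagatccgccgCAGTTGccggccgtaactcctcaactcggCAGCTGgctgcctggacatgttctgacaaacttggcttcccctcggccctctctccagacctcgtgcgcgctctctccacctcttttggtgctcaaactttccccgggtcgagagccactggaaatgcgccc
Cdh15: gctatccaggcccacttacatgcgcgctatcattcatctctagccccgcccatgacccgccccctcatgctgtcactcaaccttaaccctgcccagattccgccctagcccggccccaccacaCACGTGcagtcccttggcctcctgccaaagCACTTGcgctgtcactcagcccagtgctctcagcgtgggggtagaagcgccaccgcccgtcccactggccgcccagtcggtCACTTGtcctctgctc

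The E-box CANNTG, whose pattern is the same on both strands, was found in the windows of 9 of these 15 genes, and in 65.5% of all 33469 windows of that length. Its form CACCTG, counted within CANNTG (either strand), bound by Snail and Zeb repressors, was in 5 (Arvcf, Celsr2, Dsp, Fat3 and Jup), against 15.9% of all windows. CAGCTG, a form bound by myogenic factors, was in that of Fat1 alone, against 12.0%, and was not among the 3 E-boxes of Cdh15. The core CTTTGA, of TCF/LEF factors, was in 0 of 15, against 13.9%, and GGAATG, of TEAD factors, in Arvcf alone, against 12.1% (either strand). The GC box GGGCGG (either strand) was in 9 of 15, against 30.5%, in windows (16 for the 15 genes) whose GC content had a median of 65.8%, beside 51.2% for all windows. The 3 members that rose with an E-box were Arvcf, Cdh24 and Celsr2, and the 3 that fell were Cdh15, Fat1 and Jup. A match here is a description of letters, and binding was not measured.

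Genes that work with cadherins were followed in 7 lists, holding 92 tested genes, of which 15 rose and 28 fell, beside 17.4% and 21.2% of all genes. Their median log2 fold change was -0.030. Without scaling factors the split was 30 and 21, and with upper-quartile factors 22 and 25.

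Nectins, their adaptor afadin and proteins that bind junctional actin counted 3 risen and 9 fallen of 16 tested (median log2 fold change -0.26). Actn4, an alpha-actinin, fell from 1233 ± 29.5 to 717 ± 18.6 CPM (-0.78 ± 0.03 SE, adjusted p = 1.40e-11). Vcl, vinculin, which is recruited to alpha-catenin under tension, fell by 0.35 on the log2 scale, Actn1 by 0.26 and the actin-binding nexilin, Nexn, by 1.27. Afdn (-0.47 ± 0.06 SE), the nectin adaptor, and Nectin3 (-0.26 ± 0.08 SE) fell as well, whereas Ctnnal1, an alpha-catenin relative (0.55 ± 0.12 SE), rose. Nectin1 and Nectin2 were at -0.15 and -0.14 and did not pass (adjusted p = 0.420 and 0.0840).

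Enzymes and regulators that cleave, phosphorylate or traffic cadherins counted 2 risen and 8 fallen of 17 (median -0.19). Adam10, the sheddase of N- and E-cadherin, fell from 46.9 ± 2.55 to 32.2 ± 4.38 CPM (-0.50 ± 0.09 SE, adjusted p = 3.93e-04). Nicastrin, Ncstn, a membrane protein of a protease complex (-0.79 ± 0.05 SE), fell, as did the kinase Src (-0.31 ± 0.06 SE).

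Regulators of beta-catenin turnover, a list that holds both parts and opponents of its destruction complex, counted 4 risen and 0 fallen of 14 (median 0.12). Gsk3b, the kinase that marks beta-catenin for destruction, rose from 133 ± 4.25 to 158 ± 9.18 CPM (0.25 ± 0.05 SE, adjusted p = 0.00195). Ctnnbip1, an inhibitor of beta-catenin binding to TCF factors (0.55 ± 0.13 SE), Dvl3, a Dishevelled protein that opposes the destruction complex (0.19 ± 0.05 SE), and the ubiquitin ligase Siah1 (0.25 ± 0.08 SE) rose. Apc, Gsk3a, Csnk1a1, Btrc and Fbxw11, which like Gsk3b are parts of the degradation machinery, were not called, at -0.061 to 0.069. Dvl3 did not pass without control replicate 1 (0.15), and Siah1 did not pass with thinned libraries (0.24) or without control replicate 1 (0.20), control replicate 3 (0.22), eIF3m replicate 2 (0.21) or eIF3m replicate 3 (0.19). TCF factors, their cofactors and beta-catenin targets counted 2 risen and 3 fallen of 14 (median 0.16). Nkd2, a Wnt feedback gene, fell from 146 ± 1.82 to 64.2 ± 2.54 CPM. Bcl9l fell by 0.42 and Ccnd1 by 0.20 on the log2 scale. The repressor Tcf7l1 (0.73 ± 0.10 SE) and Bcl9 (0.48 ± 0.07 SE) rose. Ccnd1 did not pass without scaling factors (-0.056). The target Axin2 was at 3.21 ± 1.19 and 2.82 ± 0.642 CPM and was not called (adjusted p = 0.574).

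Filaments and plakins that desmosomes hold counted 0 risen and 4 fallen of 7 (median -0.12). Des, desmin, the intermediate filament of muscle, fell from 27.5 ± 3.27 to 11.5 ± 2.73 CPM (-1.23 ± 0.16 SE, adjusted p = 1.79e-05). The 10 cardiomyocyte markers moved the same way in sum, from 407 to 416 CPM in controls to 170.5 to 194 CPM in knockdown libraries, which was nearly all Tnnt2, and their part in the Des change was not tested. Vim, Dst and Plec fell by 0.12, 0.22 and 0.15 on the log2 scale. Without scaling factors Vim was at 0.028, Dst at -0.077 and Plec at -0.0044, none of them called, and Plec was also not called with upper-quartile factors (-0.081). Krt8, a keratin, was at 122 ± 4.06 and 128 ± 9.37 CPM (adjusted p = 0.467), and its partner Krt18 had at most 3 counts in a library.

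Planar polarity and Fat pathway genes counted 1 risen and 3 fallen of 13 (median -0.046). Ptk7, a polarity receptor, fell from 595 ± 21.1 to 435 ± 13.2 CPM (-0.45 ± 0.04 SE), Prickle3 fell by 0.55 and Nf2, merlin, by 0.36 on the log2 scale. Vangl2, a core polarity protein that acts with Celsr proteins, rose from 2.67 ± 0.681 to 6.04 ± 1.68 CPM (1.08 ± 0.29 SE, adjusted p = 0.00881). Factors that repress cadherins or drive epithelial-mesenchymal transition counted 3 risen and 1 fallen of 11 (median 0.11). Snai1 fell from 117 ± 1.77 to 82.8 ± 7.23 CPM (-0.49 ± 0.06 SE), and Twist2 (1.49 ± 0.28 SE), Tcf3 (0.25 ± 0.05 SE) and Snai2 (0.33 ± 0.10 SE) rose. The Snai2 call was lost with DESeq2 (0.33), with thinned libraries (0.30) and without control replicate 2 (0.30), control replicate 3 (0.29) or eIF3m replicate 1 (0.27).

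**Figure D5:**
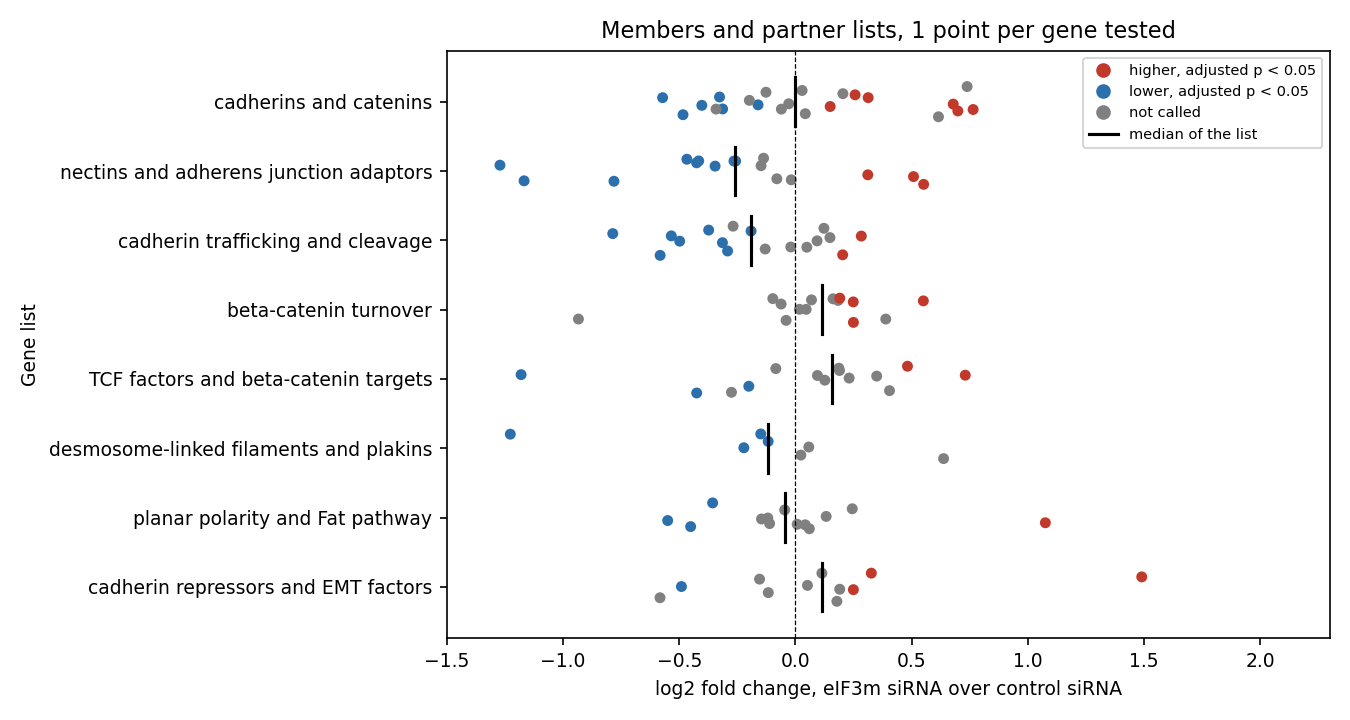
Log2 fold change of each tested gene, 1 point per gene, for the cadherins and catenins and the 7 partner lists, with the median of each list as a black bar. Medians run from -0.26 (nectins and adaptors) to 0.16 (TCF factors and targets), and the cadherins and catenins lie on both sides of 0.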

How the data were processed

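RNA-seq read counts per gene from 6 libraries were used as the authors deposited them. Per the submitters' processing notes, the tools include Trimmomatic 0.40, HISAT2 2.2.1, featureCounts, DESeq2 and limma with build rn6; for the annotation, the strand setting and multiply mapped reads the sources used here give nothing. Rows whose symbols had turned into dates (27 of 31038, 0.203 to 0.216% of counts) were left out. Genes were kept with edgeR's filter (minimum count 10, total 15), scaled with TMM factors, and tested between the groups of 3 with edgeR 4.0.16's quasi-likelihood test in R 4.3.3. P-values were adjusted by Benjamini-Hochberg over 12724 genes, with 0.05 as the threshold, and an SE is that of the log2 fold change.

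The procedure was tested on simulated data. Alternatives were DESeq2 1.42.0, limma 3.58.1 (voom), robust fits, other scaling, other filters, thinning to equal depth, a replicate block and leaving out each library. Replicates of a group differed by more than sampling noise, so no library was counted as a duplicate. Floors cover counting error only, whereas an SE or SD also takes in the spread between these libraries.

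The members and lists were chosen with earlier results of these data known. Every tested member is named, and in each partner list the 4 called genes with the lowest adjusted p, except 1 gene that is not reported here. Afdn, Nectin3, Ctnnal1, Nectin1, Nectin2, Axin2, Bcl9, Krt8, Apc, Gsk3a, Csnk1a1, Btrc and Fbxw11 were added after their values were seen. Symbols, gene order and promoter windows come from RefSeq (GRCr8), where all 50 members matched by symbol.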

Additional observations from a re-analysis of the deposited data

How the results depend on the processing

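Of 340 values of the tested members under the alternatives, 314 kept their direction and side of the threshold. Arvcf, Cdh11, Cdh13, Cdh24, Celsr2, Ctnna1, Fat1, Jup and Pkp4 passed in the same direction under every alternative run. Without scaling factors 4126 genes rose and 1684 fell, with 30 partner genes risen, and with libraries thinned to equal depth 1356 rose and 1774 fell, with 9 partner genes risen. Signs turned for members not called: Celsr3 was at 0.0072 with upper-quartile factors, 0.082 without scaling factors, and from -0.25 to 0.038 when each library was left out (above 0 without control replicates 1 and 3). Ctnnb1 was at 0.039, 0.12 and 0.018 with upper-quartile factors, no scaling factors and thinned libraries. Dsp was at 0.016 without scaling factors, and from -0.40 to 0.11 when each library was left out (above 0 without control replicate 2 and eIF3m replicate 2). On leaving out each library Fat3 ran from -0.75 to 0.042 (without control replicate 1) and Cdh18 from -0.10 to 0.14 (below 0 without control replicate 2 and eIF3m replicate 3), and Fat4 was at -0.15 when thinned. Vim was at 0.028 without scaling factors. The log2 difference of the Cdh11 to Cdh2 ratio ran from -0.44 to 0.15 when each library was left out. The cause of these changes was not tested.

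Leaving out each library gave 5 to 6 members risen and 5 to 6 fallen, 11 to 14 partner genes risen and 25 to 31 fallen, and 1692 to 2113 genes risen and 2336 to 2641 fallen. The replicate numbers did not pair the libraries (correlations of deviations 0.029, -0.0083 and 0.0094), and a replicate block gave 6 members risen and 6 fallen, 16 and 28 partner genes, and 2123 and 2632 genes in all. The 28 untested members had at most 30 counts in a library, and whether depth or absence of the transcript kept them low was not tested. The smallest library, eIF3m replicate 2, with 2156186 counts, sets the highest floor.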
